A study of Mus musculus with 12 samples.

Results

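Leukaemia stem cells of G3 Terc-/- genotype that carried the label p-Foxo3a+ (Ser253) were compared with WT leukaemia stem cells. The comparison used 2 of the 12 Illumina bead arrays (replicates 1 and 4 of the 6 Terc-/- arrays) against 6 WT arrays, and, following the rule that defined it, genes were described by whether both p-Foxo3a samples lay on the same side of WT. G3 Terc-/- marrow lacks the RNA component of telomerase and comes from the G3 generation of such mice. In both groups Lin-, Kit+, Sca1+ marrow cells that expressed the MLL-AF9 fusion with green fluorescent protein were injected, 10000 per mouse, into C57BL/6J recipients aged 6 to 8 weeks that had received 5.5 Gy. When a recipient became ill, fluorescent Lin-, Kit+, Fcgr+ cells were sorted from its marrow, so every sample comes from an MLL-AF9 leukaemia grown in recipients that were not themselves labelled as Terc-/-. Each sort was made at a recipient's own disease onset, but the labels tie no sample to an animal, and they do not say how the phosphorylation was measured. The p-values therefore describe only how far these samples vary, which may be technical.

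Foxo3 (Foxo3a) is a forkhead transcription factor that switches on genes of cell cycle arrest, apoptosis, stress defence and autophagy. Downstream of growth factor receptors and PI3 kinase, the kinase Akt phosphorylates it at several residues including Ser253, 14-3-3 proteins then bind it, and it is held in the cytoplasm. In MLL-AF9 leukaemia FoxO activity has been linked to the undifferentiated state of the leukaemic cells, and short telomeres activate p53 through the DNA damage response.

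The values are log2 units of bead intensity, in which 1 unit is a 2-fold difference, and levels of different genes are not compared because each has its own probe. A background limit of 6.57 was read from the values. Each array had 19246 to 19428 probes above it, and 11889 genes were kept. The arrays of WT replicates 5 and 6 were nearly identical (correlation 0.996) and were averaged, leaving 5 WT samples against 2. Among gate markers, Kit had 13.24 and 12.77 in p-Foxo3a replicates 1 and 4, against 12.29 to 12.82 in WT, and Fcgr2b averaged 11.56 ± 0.21 (SD, n = 2) and 11.58 ± 0.08 in WT (SD, n = 5). A list of 8 genes joined gate markers (Kit, Fcgr2b, Fcgr3, Fcgr4) with the stem cell genes Cd34, Ly6a, Hoxa9 and Meis1. Its 6 kept members summed to linear intensities of 21001 and 21385 in p-Foxo3a samples, against 17865 to 20988 in WT. Replicate 1 was barely above that range. By member, 2 were higher and 2 lower than the WT mean in both p-Foxo3a samples, and 2 lay on opposite sides. The knockout itself was not checked, since Terc is not among the kept genes and the probe for Tert was too dim.

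The 2 p-Foxo3a samples differed from each other in more genes than replicate 4 differed from WT. Between replicates 1 and 4, 824 genes were at least 2-fold apart, against 744 to 1033 between replicate 1 and single WT samples, 266 to 524 between replicate 4 and single WT samples, and 162 to 597 between WT samples. Replicate 1 also carried shifts of whole chromosomes. Its median difference from WT over bright genes was 0.38 on chromosome 6 and 0.40 on chromosome 16. On chromosome 2 it was -0.21, with a continuous run of 131 bright genes at -0.81 and the rest of the chromosome at -0.11. In that run replicate 4 had a median of -0.01 and WT samples -0.03 to 0.03, and no chromosome of replicate 4 was shifted by 0.15 or more. On chromosome 19, where Dusp5 and Fas lie, WT samples themselves ranged from -0.18 to 0.19, with p-Foxo3a replicates 1 and 4 at 0.07 and 0.14. The part of the chromosome shifts in the values of single genes was not tested. Genes on chromosomes 2, 6 and 16 are marked where their values are described.

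**Figure D1:**
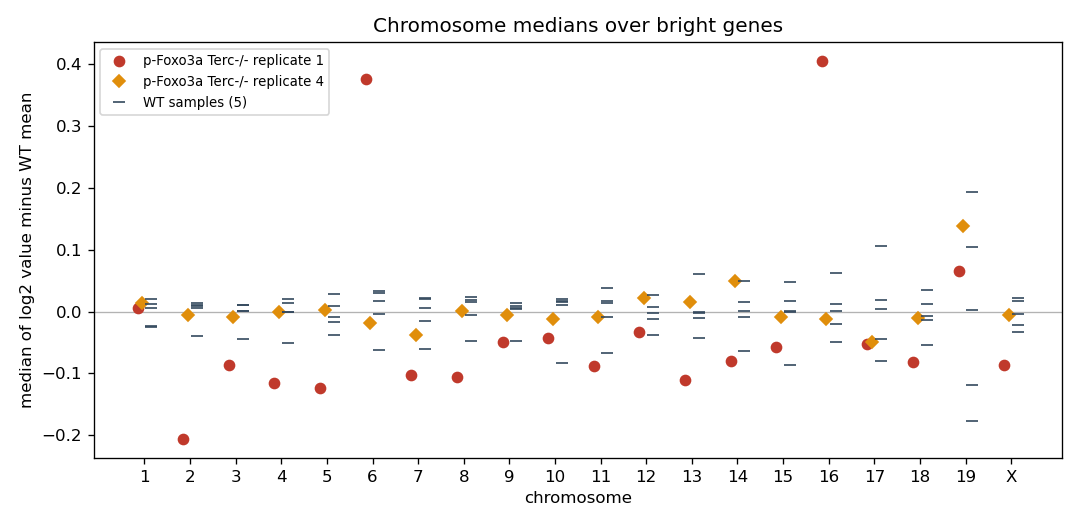
Median difference from the WT mean over bright genes (y axis, log2 units) for each chromosome (x axis) in p-Foxo3a Terc-/- replicates 1 (circles) and 4 (diamonds) and in the 5 WT samples (dashes). Replicate 1 stands apart on chromosomes 6 (0.38), 16 (0.40) and 2 (-0.21), and replicate 4 does not. On chromosome 19 the WT samples themselves spread from -0.18 to 0.19.

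No gene passed an adjusted p of 0.05 in limma over 11889 genes (0% called, smallest adjusted p = 0.374), while 507 genes (4.26%) were higher and 655 (5.51%) lower at an unadjusted p under 0.05. The calls depended on which p-Foxo3a sample was used. With replicate 4 alone 1 gene passed, Mpo (-1.92, adjusted p = 0.00908), and with replicate 1 alone 260 passed, each time with the lone sample assumed to vary like the other groups. Both p-Foxo3a samples lay above the WT mean in 2981 genes (25.1%) and below it in 3678 (30.9%), and on opposite sides in 5230. Both lay above every WT sample in 600 genes (5.05%) and below every WT sample in 887 (7.46%), and 251 of these 1487 genes were also at least 0.5 from the WT mean in both. Against these, 916 genes had one p-Foxo3a sample above and the other below the whole WT range. Without WT replicate 1 the count of genes beyond the WT range in both was 2345. The text below therefore says "above" or "below every WT sample" as a description of these samples and not as a call.

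The 13 genes farthest above WT in both p-Foxo3a samples were led by Trps1, a GATA-type zinc finger repressor of transcription. Trps1 had 11.85 and 10.43 in p-Foxo3a replicates 1 and 4, against 7.74, 6.75, 7.40, 8.08 and 8.79 in WT replicates 1, 2, 3, 4 and the averaged 5 and 6. Both p-Foxo3a values were well clear of WT, the difference was 3.39 ± 0.62 (SE) or 10.5-fold (limma adjusted p = 0.374), and all 3 of its probes ran the same way. Kcnq5, a voltage-gated potassium channel, had 8.24 and 8.62 in p-Foxo3a samples, against 6.93, 6.29, 6.44, 6.52 and 7.08 in WT, of which only 2 were above background. Ly6k, a GPI-anchored Ly6 protein, had 9.06 and 8.04 in p-Foxo3a samples, against 7.02, 6.35, 6.59, 6.36 and 7.06 in WT, of which 3 were above background. Cass4, a scaffold of the Cas adhesion family on chromosome 2, had 10.64 and 9.96 in p-Foxo3a samples, against 8.36, 8.43, 7.95, 9.05 and 8.60 in WT. These 4 genes were the ones of the 13 with the smallest standard error beside their difference, with SEs of 0.62 for Trps1, 0.23 for Kcnq5, 0.30 for Ly6k and 0.34 for Cass4.

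The surface lectin Cd93, known from early myeloid progenitors and also on chromosome 2, had 13.88 and 12.77 in p-Foxo3a samples, against 12.52, 10.62, 11.04, 10.54 and 11.86 in WT (difference 2.01 ± 0.63, SE). Cd34, the progenitor sialomucin and the next gene outside the 13, had 8.85 and 9.06 in p-Foxo3a samples, against 6.94 to 8.58 in WT. In both genes WT replicate 1 came closest to the p-Foxo3a samples. Several others came close to the WT range in at least 1 sample. Fnbp1l, an F-BAR protein of actin assembly, had 13.48 and 13.72 in p-Foxo3a samples, against 9.13 to 13.16 in WT. Dusp5, a nuclear phosphatase of ERK kinases, had 10.93 and 9.76 in p-Foxo3a samples, against 6.97 to 9.72 in WT. Hmgn3, a nucleosome-binding protein, had 11.83 and 8.90 in p-Foxo3a samples, against 6.46 to 8.87 in WT, so replicate 4 was barely outside the range. Only 3 of 5 WT samples were above background for Hmgn3. The remaining 5 were Sdr39u1, the endoplasmic reticulum exit site protein Sec16b, the muscle creatine kinase Ckm, the microtubule protein Eml5 and the N-glycan branching enzyme Mgat5. Their differences lay between 1.45 (Eml5) and 2.08 (Sdr39u1).

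The 13 genes farthest below WT included granule proteins, transporters and secreted factors. Ces1d, a carboxylesterase, had 6.72 and 7.87 in p-Foxo3a replicates 1 and 4, against 10.11, 12.46, 12.40, 12.98 and 12.22 in WT. This was a difference of -4.73 ± 1.31 (SE) or 26.6-fold (adjusted p = 0.459), with the lowest WT value in replicate 1. Slc6a12, a betaine and GABA transporter, had 6.79 and 6.81 in p-Foxo3a samples, close to background, against 7.91, 9.68, 9.14, 9.56 and 9.45 in WT. It lies on chromosome 6, where its 50 neighbouring genes had a median of 0.45 in replicate 1, the opposite direction. Penk, the precursor of enkephalin peptides, had 7.26 and 8.06 in p-Foxo3a samples, against 8.76, 10.92, 10.03, 10.85 and 9.64 in WT (difference -2.39 ± 0.55, SE). Igfbp4, a binding protein of insulin-like growth factors, had 7.47 and 9.66 in p-Foxo3a samples, against 10.74 to 12.84 in WT, and Igf2r, the receptor that clears Igf2, had 6.94 and 7.26 in p-Foxo3a samples, against 7.89 to 10.20 in WT.

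The vesicular inhibitory amino acid transporter Slc32a1 (chromosome 2) had 8.16 and 6.92 in p-Foxo3a samples, against 8.37 to 12.11 in WT. The chloride channel Cftr (chromosome 6) had 6.30 and 6.72 in p-Foxo3a samples, against 7.21 to 11.06 in WT, and only 1 p-Foxo3a sample was above background. The lectin Mgl2 had 8.75 and 9.23 in p-Foxo3a samples, against 10.17 to 12.89 in WT, and the secreted zinc-binding glycoprotein Azgp1 had 6.78 and 7.31 in p-Foxo3a samples, against 7.77 to 10.47 in WT. The other 4 were Ltf, Fcnb, Stfa2 and Stfa2l1, described with the granule genes. Over the 26 genes the limma adjusted p lay between 0.374 and 0.581. WT itself varied in them more than usual, with a median WT SD of 0.93 against 0.17 over all genes, and 8 of them lie on chromosomes 2, 6 or 16.

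**Figure D2:**
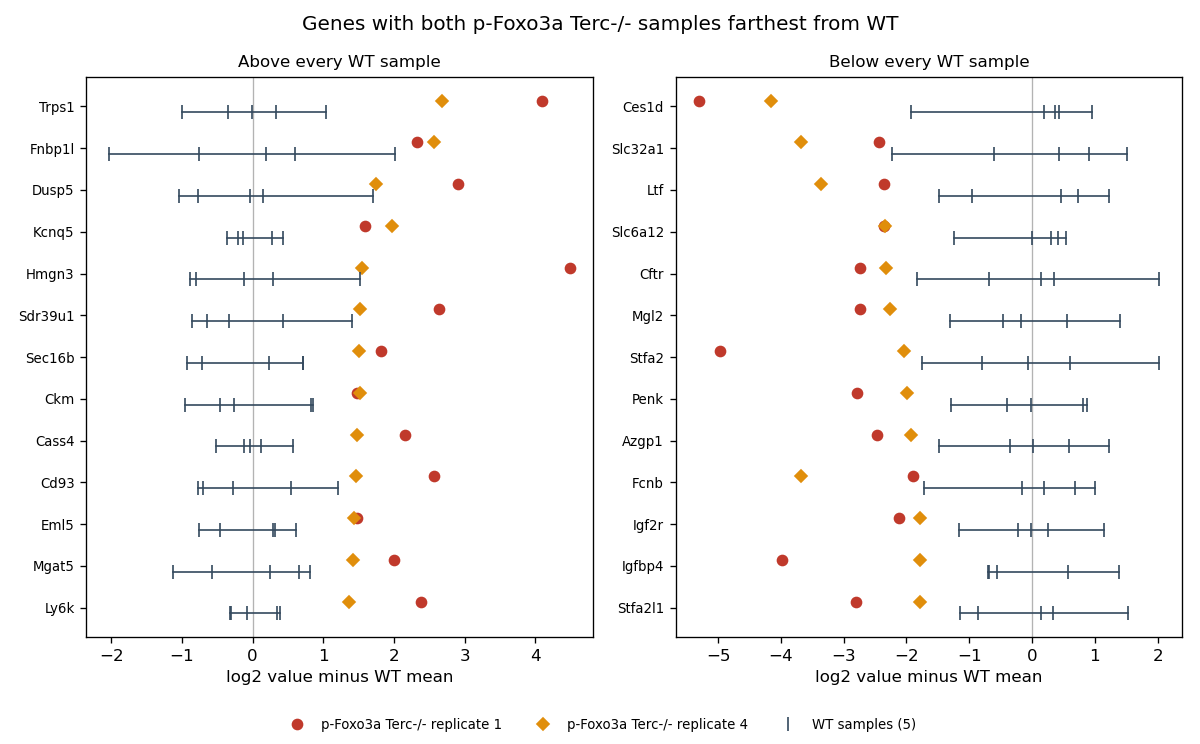
Difference from the WT mean (x axis, log2 units) for the 13 genes farthest above and the 13 farthest below WT, chosen for lying beyond every WT sample in both p-Foxo3a Terc-/- samples. Circles and diamonds are p-Foxo3a replicates 1 and 4, and ticks joined by a line are the 5 WT samples. Trps1 had the widest gap above WT and Ces1d below it, while Dusp5, Hmgn3, Fnbp1l and Fcnb had 1 sample close to the WT range.

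Genes that act on Foxo3 were examined next, from the receptor-proximal kinases to Foxo3 itself. Of 34 measured genes of FoxO factors and Akt regulators, 8 were higher than the WT mean in both p-Foxo3a samples, against 25.1% of all genes. Lower in both were 9, against 30.9%. Above every WT sample lay 3 (8.82%), against 5.05% of all genes, and below it 3 (8.82%), against 7.46%. The median difference was -0.02, as over all genes (-0.02). Phlda3, a pleckstrin homology protein that competes with Akt for membrane lipids, had 7.84 and 7.68 in p-Foxo3a samples, against 6.51, 6.42, 6.75, 6.37 and 6.68 in WT. The groups did not overlap, 2 of 5 WT samples were above background, the difference was 1.22 ± 0.24 (SE) or 2.33-fold (adjusted p = 0.374), and in p-p53 Terc-/- samples Phlda3 had 6.85 and 7.84. Pdpk1, the kinase PDK1 that activates Akt, had 9.21 and 9.03 in p-Foxo3a samples, against 9.75, 9.53, 9.58, 9.65 and 9.57 in WT. This difference of -0.49 ± 0.10 (SE) was small but clear of the narrow WT range, and both Pdpk1 probes ran the same way.

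Foxo3 mRNA itself had 7.51 and 8.32 in p-Foxo3a samples, against 7.43, 7.43, 7.29, 7.21 and 6.98 in WT. Both values were above every WT sample, replicate 1 narrowly, for a difference of 0.65 ± 0.23 (SE, adjusted p = 0.471). Trib1, a pseudokinase that guides the ubiquitin ligase Cop1, had 8.87 and 8.60 in p-Foxo3a samples, against 7.10 to 8.24 in WT. Mlst8, a subunit shared by both mTOR complexes, had 11.14 and 11.02 in p-Foxo3a samples, against 11.23 to 11.63 in WT. Phlpp1, a phosphatase that dephosphorylates Akt, had 6.27 and 6.47 in p-Foxo3a samples, both below background, against 6.52 to 6.73 in WT, where 4 of 5 were above it, so only a bound on its level is known there. The kinases Akt1 (6.57 and 6.69 in p-Foxo3a samples, against 6.47 to 6.85 in WT) and Akt2 (6.70 and 6.26, against 6.41 to 6.62 in WT) were at background, and Foxo1 (7.25 and 7.15, against 6.77 to 7.54 in WT) lay within the WT range. The Akt-related kinase Sgk1, which also phosphorylates Foxo3, had 10.14 and 11.49 in p-Foxo3a samples, against 9.34 to 10.70 in WT, so only replicate 4 was above the range. The lipid phosphatase Inpp5d had 10.17 and 9.50 in p-Foxo3a samples, against 9.69 to 10.16 in WT, on opposite sides.

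Of 33 measured direct targets of FoxO factors, 12 were higher in both p-Foxo3a samples, against 25.1% of all genes, and 7 lower, against 30.9%. Above every WT sample lay 5 (15.2%), against 5.05% of all genes, and below it 2 (6.06%), against 7.46%. The list did not move as a unit: its median difference was 0.44 in replicate 1 and -0.06 in replicate 4, against -0.07 to 0.09 in WT. Gadd45a, a stress sensor that slows the cell cycle and lies on chromosome 6, had 12.39 and 11.39 in p-Foxo3a samples, against 10.99, 10.53, 9.87, 11.01 and 10.09 in WT. Bbc3, the pro-apoptotic BH3 protein Puma, had 9.45 and 10.13 in p-Foxo3a samples, against 9.31, 9.10, 8.34, 9.08 and 8.92 in WT (difference 0.84 ± 0.34, SE). Both were above WT in each p-Foxo3a sample, Bbc3 in replicate 1 by a small margin. The zinc finger factor Klf6 had 12.96 and 13.30 in p-Foxo3a samples, against 11.17 to 12.94 in WT, and the autophagy factor Atg12 had 12.60 and 12.05 in p-Foxo3a samples, against 11.69 to 11.96 in WT. Depp1 (chromosome 6) was narrowly above every WT sample (6.97 and 7.06 in p-Foxo3a samples, against 6.40 to 6.96 in WT).

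On the lower side stood Ccng2, a cyclin of growth arrest and a classical FoxO target, with 9.10 and 9.32 in p-Foxo3a samples, against 9.75, 9.57, 9.34, 10.34 and 9.99 in WT. The catalase gene Cat had 6.57 and 6.86 in p-Foxo3a samples, against 6.87 to 7.08 in WT, but lies within the chromosome 2 run where its neighbours had a median of -0.93 in replicate 1. For Cat only 1 p-Foxo3a sample was above background. Other well-known targets did not separate. The cell cycle inhibitor Cdkn1b (chromosome 6) had 7.90 and 7.69 in p-Foxo3a samples, against 7.82 to 8.31 in WT. The pro-apoptotic Bcl2l11 (Bim, chromosome 2) had 9.40 and 8.90 in p-Foxo3a samples, against 8.68 to 9.34 in WT. Sod2, the mitochondrial superoxide dismutase, had 11.48 and 12.29 in p-Foxo3a samples, against 11.98 to 12.27 in WT, on opposite sides. The thioredoxin inhibitor Txnip had 12.08 and 11.44 in p-Foxo3a samples, against 11.72 to 12.40 in WT, and the quiescence factor Klf2 had 13.03 and 13.75 in p-Foxo3a samples, against 9.80 to 13.21 in WT.

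**Figure D3:**
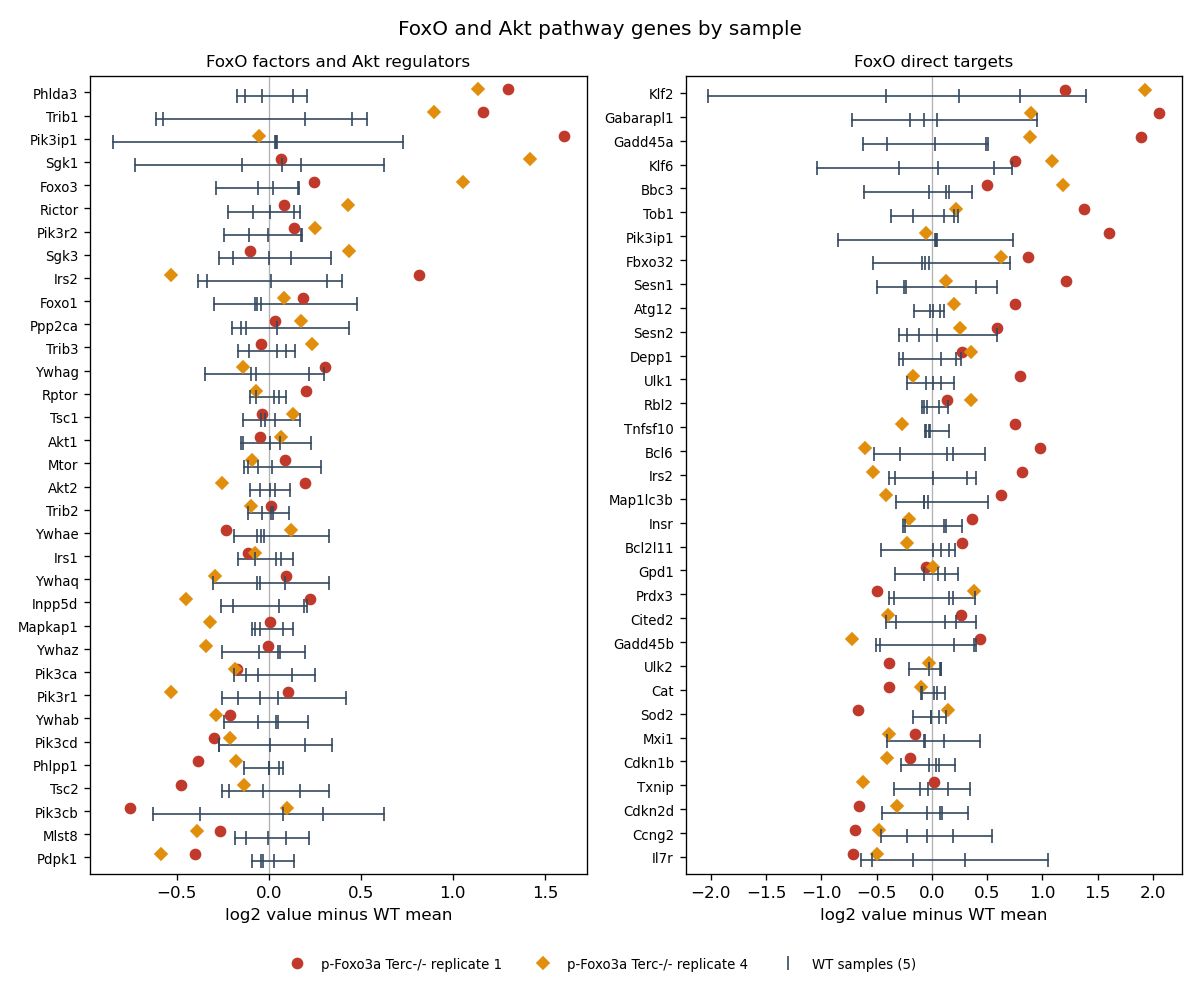
Difference from the WT mean (x axis, log2 units) of each measured gene among FoxO factors and Akt regulators (left, 34 genes) and FoxO direct targets (right, 33 genes), ordered by mean difference. Circles and diamonds are p-Foxo3a Terc-/- replicates 1 and 4, and joined ticks are the 5 WT samples. Phlda3 and Pdpk1 stand clear of WT in both samples, while many targets, such as Irs2 and Bcl6 (chromosome 16), lie above the WT mean in replicate 1 and below it in replicate 4.

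The FoxO binding motif GTAAACA was looked for on both strands of RefSeq promoters (GRCm38.p6, reaching 50 bases past a gene's start). It was found in 5 of 29 direct targets with a promoter sequence (17.2%), against 3.1% of the 9662 compared genes that have one. The matches of Bbc3 at chr7:16310054-16310140 (plus strand) and Txnip at chr3:96557796-96557882 (plus strand) are shown because the 2 genes bear the same motif, in capitals, and took different values here. Bbc3 carries it on the opposite strand. A match is a run of letters and not a measured binding site.
Bbc3: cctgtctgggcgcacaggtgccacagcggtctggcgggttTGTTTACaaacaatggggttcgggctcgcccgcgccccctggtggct
Txnip: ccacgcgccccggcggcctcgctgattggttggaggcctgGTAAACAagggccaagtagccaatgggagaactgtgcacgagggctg

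Targets of p53 were set beside these because Phlda3 and Bbc3 belong to both pathways. Of 43 measured p53 targets, 16 were higher in both p-Foxo3a samples, against 25.1% of all genes, and 10 lower, against 30.9%. The median difference was 0.05. Above every WT sample lay 6 of 43, against 5.05% of all genes, and below it 3 (6.98%), close to the 7.46% of all genes. Dyrk3, a kinase that dissolves stress granules, had 9.52 and 10.58 in p-Foxo3a samples, both above every WT sample, against a WT mean of 8.65 ± 0.22 (SD, n = 5). The Dyrk3 difference was 1.40 ± 0.29 (SE, limma adjusted p = 0.374). Plk3, a stress-activated polo kinase, had 8.82 and 9.47 in p-Foxo3a samples, against 8.00, 8.40, 8.00, 7.90 and 7.15 in WT. Mdm2, the ubiquitin ligase that restrains p53, had 11.73 and 11.75 in p-Foxo3a samples, against 11.02 to 11.70 in WT, and the peptide transporter Tap1 had 8.82 and 8.55 in p-Foxo3a samples, against 7.82 to 8.43 in WT. Below every WT sample were the death receptor Fas (7.83 and 8.40 in p-Foxo3a samples, against 8.56 to 9.04 in WT), the apoptosome protein Apaf1 (11.20 and 11.65, against 11.66 to 11.83 in WT) and the costimulatory ligand Cd80 on chromosome 16, for which 1 of 2 probes ran this way. The p53 target that arrests the cell cycle, Cdkn1a (p21), had 8.53 and 9.39 in p-Foxo3a samples, against 8.00 to 10.76 in WT, inside the WT range.

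Of 35 apoptosis genes 2 lay above every WT sample, near the 5.05% of all genes, and 7 below, against 7.46% of all genes. Gsdmd, the pore protein of pyroptosis, had 11.01 and 10.88 in p-Foxo3a samples, against 11.60, 11.66, 11.56, 11.34 and 11.60 in WT. The difference of -0.60 ± 0.12 (SE, adjusted p = 0.374) held in all 3 probes. Bid, a BH3 protein on chromosome 6, had 12.35 and 11.84 in p-Foxo3a samples, against 11.23 to 11.78 in WT. Caspase 6 (Casp6) had 8.51 and 8.49 in p-Foxo3a samples, against 8.72 to 9.16 in WT. The survival genes Bcl2a1b (8.03 and 8.83 in p-Foxo3a samples, against 8.85 to 10.51 in WT) and Bcl2a1d were also lower, but these near-identical copies may share probe signal and cannot be told apart.

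Genes of G2/M and mitosis had the largest share below every WT sample among the 24 pathway lists. Of 53 measured, 50 were below the WT mean in both samples, against 30.9% of all genes, and none above, against 25.1%. Below every WT sample lay 20 (37.7%), against 7.46% of all genes. The median difference was -0.85 in replicate 1 and -0.25 in replicate 4, against -0.25 to 0.28 in WT, so replicate 4 was at the level of WT replicate 1 and replicate 1 was below all WT samples. With replicate 4 alone, 22 of 53 were below every WT sample, against 19.7% of all genes, and none above, against 15.9%. Plk1, the polo kinase of mitotic entry, had 9.99 and 11.04 in p-Foxo3a samples, against 11.18, 11.71, 11.56, 11.78 and 11.71 in WT (difference -1.07 ± 0.28, SE, adjusted p = 0.459). Tpx2, which activates Aurora A on the spindle and lies on chromosome 2, had 8.13 and 8.67 in p-Foxo3a samples, against 9.22, 9.43, 8.97, 9.58 and 9.29 in WT (adjusted p = 0.383). Kif4, a chromosome-bound kinesin, had 9.71 and 9.92 in p-Foxo3a samples, against 10.21, 10.57, 10.19, 10.77 and 10.60 in WT, in all 3 of its probes. The condensin subunit Smc2 had 8.70 and 8.90 in p-Foxo3a samples, against 9.37 to 9.83 in WT, although only the brighter of its 2 probes ran this way.

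The spindle midzone protein Prc1 had 11.62 and 12.59 in p-Foxo3a samples, against 12.84 to 13.39 in WT, and survivin (Birc5) had 11.55 and 12.23 in p-Foxo3a samples, against 12.42 to 12.83 in WT. The spindle protein Nusap1 had the largest mean difference of the list (10.37 and 11.65 in p-Foxo3a samples, against 11.88 to 12.55 in WT), followed by Plk1 and the checkpoint kinase Bub1b (10.01 and 11.62 in p-Foxo3a samples, against 11.73 to 12.02 in WT). Nusap1 and Bub1b lie within the chromosome 2 run of replicate 1. Among the 39 members off chromosomes 2, 6 and 16, 14 were still below every WT sample, against 745 of 9950 genes. The 39 members had medians of -0.76 in replicate 1 and -0.24 in replicate 4. The transcription factor Foxm1, which drives many of these genes and lies on chromosome 6, had 9.72 and 9.66 in p-Foxo3a samples, against 9.39 to 10.44 in WT, within the range. Cdk1 had 10.88 and 11.84 in p-Foxo3a samples, against 11.77 to 12.30 in WT, so that only replicate 1 was outside it.

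Many mitotic promoters hold the cell cycle genes homology region, TTTGAA, through which repressor and activator complexes act in turn during the cycle. It was present on either strand in 32 of 44 G2/M genes with a RefSeq promoter (72.7%), against 15.1% of compared genes. It lay within 50 bases of the start in 65.9% of the G2/M genes, against 4.0% of compared genes. Among members below every WT sample 14 of 17 held it, and among the others 18 of 27 did. The stretches around the match (capitals, TTTGAA or its complement TTCAAA) are shown for 4 members below every WT sample, to let the shared element be seen. They were taken in order of the smaller of their 2 differences from WT among members whose match lies wholly before the start, so members without such a match, Plk1 and Kif4 among them, are not shown. They lie at chr4:52439036-52439121 (Smc2, plus strand), chr7:127042421-127042477 (Kif22, minus), chr5:45669855-45669924 (Ncapg, plus) and chr7:80294406-80294475 (Prc1, plus) of GRCm38.p6.
Smc2: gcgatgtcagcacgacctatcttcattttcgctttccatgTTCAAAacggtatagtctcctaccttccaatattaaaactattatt
Kif22: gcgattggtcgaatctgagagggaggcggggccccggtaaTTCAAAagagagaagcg
Ncapg: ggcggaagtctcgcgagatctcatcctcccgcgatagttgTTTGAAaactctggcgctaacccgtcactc
Prc1: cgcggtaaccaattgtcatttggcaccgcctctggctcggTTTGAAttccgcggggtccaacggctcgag

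Genes of DNA replication and the G1/S step had a list median below WT in replicate 1 and within it in replicate 4. The median was -0.42 in replicate 1 and -0.04 in replicate 4, against -0.13 to 0.12 in WT, and in replicate 4 alone 7 of 52 lay below every WT sample, against 19.7% of all genes. In both samples together 28 of 52 were lower and 5 higher than the WT mean, against 30.9% and 25.1% of all genes. Below every WT sample lay 6 (11.5%) and above it 1, against 7.46% and 5.05% of all genes. The helicase cofactors Gins3 (7.78 and 8.14 in p-Foxo3a samples, against 8.27 to 8.84 in WT) and Cdc45 (chromosome 16, 10.66 and 10.69, against 10.93 to 11.01 in WT), DNA ligase Lig1 (10.92 and 11.21, against 11.37 to 11.78 in WT) and the maintenance methyltransferase Dnmt1 (11.19 and 11.28, against 11.33 to 11.77 in WT) were below every WT sample. The helicase subunit Mcm2, on chromosome 6, was above (11.80 in both p-Foxo3a samples, against 11.33 to 11.75 in WT). Of the D cyclins, Ccnd3 had 12.90 and 12.92 in p-Foxo3a samples, against 13.11 to 13.55 in WT. Ccnd1 had 7.11 and 10.46 in p-Foxo3a samples, against 7.59 to 9.40 in WT, with replicate 1 below and replicate 4 above the range. Its partner kinase Cdk6 had 10.45 and 10.16 in p-Foxo3a samples, against 9.17 to 10.28 in WT.

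Of 52 genes of DNA repair 3 lay above every WT sample, near the 5.05% of all genes, and 7 (13.5%) below, against 7.46%. The list median was -0.17 in replicate 1 and 0.04 in replicate 4, against -0.09 to 0.10 in WT. In replicate 4 alone 9 of 52 lay below every WT sample, against 19.7% of all genes. Chek2, the checkpoint kinase downstream of ATM, had 8.25 and 8.81 in p-Foxo3a samples, against 9.03 to 9.32 in WT (difference -0.63 ± 0.16, SE). The Fanconi anaemia genes Fancl (8.83 and 8.86 in p-Foxo3a samples, against 8.97 to 9.62 in WT), Fanci and Brip1 were also below. None of 24 telomere maintenance genes lay beyond the WT range in both samples, against 5.05% of all genes above and 7.46% below it. A list of this size would hold few such genes at those shares.

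**Figure D4:**
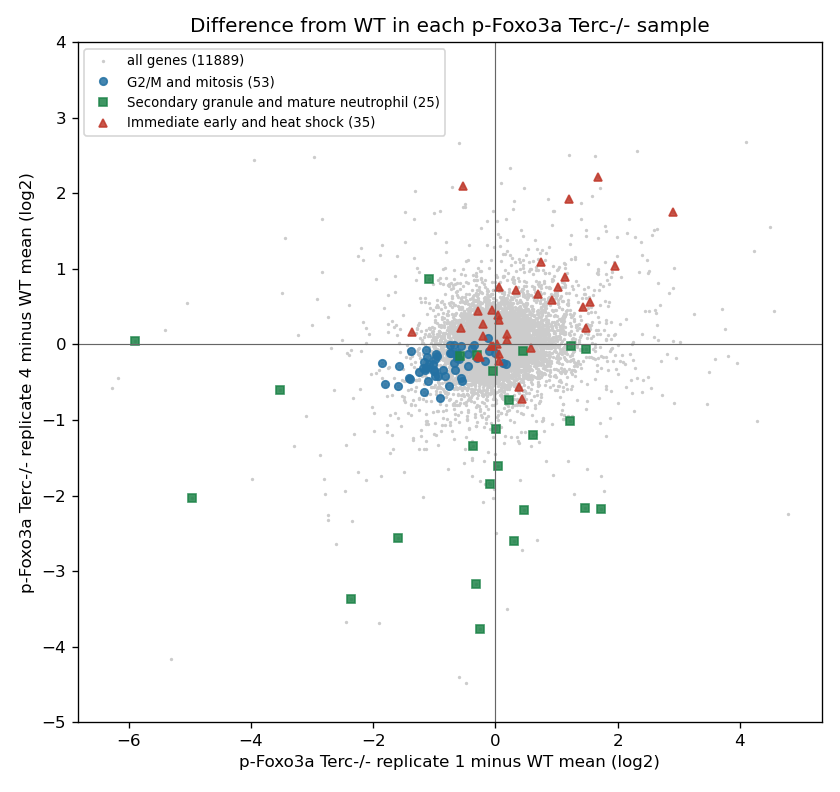
Difference from the WT mean in p-Foxo3a Terc-/- replicate 1 (x axis) and replicate 4 (y axis), in log2 units, for all 11889 genes (grey) and 3 lists (coloured). Both axes share the same WT samples, so nothing is read from their relation. 50 of 53 G2/M genes lie below 0 on both axes, while secondary granule genes lie low mainly in replicate 4.

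Granule genes of the myeloid series separated the 2 p-Foxo3a samples from each other. Of 25 secondary granule and mature neutrophil genes, none was higher in both, against 25.1% of all genes, and 11 were lower, against 30.9%. Below every WT sample lay 4 (16%), against 7.46% of all genes. One of them, Stfa3 on chromosome 16, was at background in both p-Foxo3a samples. Off chromosomes 2, 6 and 16, 2 of 18 members lay below every WT sample, against 745 of 9950 genes. The list median was -0.05 in replicate 1 and -1.20 in replicate 4, against -0.40 to 0.30 in WT. Ltf, the iron-binding lactoferrin, had 7.62 and 6.61 in p-Foxo3a samples, against 8.50, 11.21, 9.03, 10.71 and 10.44 in WT. Camp, the cathelicidin precursor, had 13.48 and 12.51 in p-Foxo3a samples, against 13.93, 15.27, 15.12, 15.60 and 15.47 in WT. For both, all samples of the groups were apart, with WT replicate 1 nearest. Ngp had 13.89 and 10.38 in p-Foxo3a samples, against 13.04 to 14.94 in WT, and the calcium-binding alarmin S100a9 had 15.07 and 12.41, against 14.04 to 15.26 in WT, so that only replicate 4 was low.

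The stefin Stfa1, on chromosome 16, took the reverse form, with 9.88 and 15.81 in p-Foxo3a samples, against 15.70 to 15.85 in WT. Also on chromosome 16, Stfa2 (6.58 and 9.52 in p-Foxo3a samples, against 9.80 to 13.57 in WT) and Stfa2l1 (6.47 and 7.50, against 8.14 to 10.80 in WT) belong to the same family of similar sequences, whose probes may share signal. For Stfa2l1 only 1 p-Foxo3a sample was above background. The summed linear intensity of 11 of 13 mature neutrophil markers was 133870 and 41610 in p-Foxo3a samples, against 103030 to 206530 in WT, so replicate 4 had less than any WT sample and replicate 1 did not. The part of such cells in the granule values was not tested. In sorted bulk samples, fewer cells of a type and less RNA per cell cannot be told apart. The p-p53 samples had medians of 0.62 and -0.63 for this list, on either side of WT.

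Of 21 primary granule and progenitor enzyme genes, 2 were higher in both p-Foxo3a samples, against 25.1% of all genes, and 7 lower, against 30.9%. Above every WT sample lay 1 and below it 3 (14.3%), against 5.05% and 7.46% of all genes. List medians were 0.09 in replicate 1 and -0.46 in replicate 4, against -0.40 to 0.42 in WT. Mpo, the myeloperoxidase of azurophil granules, had 15.61 and 13.72 in p-Foxo3a samples, against 15.49, 15.65, 15.70, 15.69 and 15.65 in WT. Elane, neutrophil elastase, had 15.76 and 15.38 in p-Foxo3a samples, against 15.76 to 15.88 in WT, with replicate 1 at the edge of the range. Fcnb, a ficolin whose gene lies on chromosome 2, had 11.92 and 10.14 in p-Foxo3a samples, against 12.10 to 14.82 in WT. Serpinb1a, an inhibitor of these proteases, was higher, with 12.45 and 12.67 in p-Foxo3a samples, against 11.75 to 12.19 in WT (difference 0.55 ± 0.15, SE).

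Of 35 immediate early and heat shock genes 19 were higher in both p-Foxo3a samples, against 25.1% of all genes, and 4 lower, against 30.9%. Above every WT sample lay 4 (11.4%), against 5.05% of all genes, and none lay below. List medians were 0.19 and 0.33 in p-Foxo3a samples, against -0.17 to 0.28 in WT, so only replicate 4 exceeded WT. Junb had 10.62 and 10.59 in p-Foxo3a samples, against 9.45 to 10.26 in WT, and the ERK-induced Ier3 had 11.21 and 10.87 in p-Foxo3a samples, against 9.71 to 10.81 in WT. Fosb had 11.60 and 12.13 in p-Foxo3a samples, against 7.62 to 12.56 in WT, a WT spread that covers both.

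Interferon-stimulated genes had a median of 0.44 in replicate 1 and -0.05 in replicate 4, against -0.20 to 0.16 in WT, and 2 of 48 (4.17%) were above every WT sample, near the 5.05% of all genes, and 1 (Oas1g, one of a family of near-identical genes) below. One of those above was the immunoproteasome subunit Psmb8, with 13.78 in both p-Foxo3a samples, against 12.83 to 13.59 in WT, the other Tap1. The class I light chain B2m, within the chromosome 2 run, had 15.58 and 14.13 in p-Foxo3a samples, against 14.37 to 14.52 in WT, above the range in replicate 1 and below it in replicate 4.

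Among metabolic lists, glycolysis and hypoxia genes had a list median above every WT sample in both p-Foxo3a samples, by a small amount. Of 29 such genes, 16 were higher in both samples, against 25.1% of all genes, and 6 lower, against 30.9%. List medians were 0.19 and 0.14 in p-Foxo3a samples, against -0.19 to 0.05 in WT. The glucose transporter Slc2a1 had 9.71 and 10.09 in p-Foxo3a samples, against 9.16 to 9.61 in WT, and Gapdh, on chromosome 6, had 14.77 and 14.60, against 14.04 to 14.48 in WT. Of 62 oxidative phosphorylation genes 6 (9.68%) were below every WT sample, near the 7.46% of all genes, and none above, among them cytochrome c1 (Cyc1, 11.04 and 11.22 in p-Foxo3a samples, against 11.24 to 11.66 in WT).

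Of 42 cytosolic ribosomal proteins 21 were higher and 4 lower in both samples, with a median difference of 0.04. Over all genes, 25.1% were higher and 30.9% lower in both. Of 42 genes of MYC and ribosome biogenesis 8 were higher and 4 lower in both samples. List medians were -0.22 and 0.32 in p-Foxo3a samples, against -0.19 to 0.26 in WT, so the 2 samples lay beyond WT on opposite sides. In replicate 1, 17 of 42 were below every WT sample, against 3255 of 11889 genes. In replicate 4, 18 of 42 were above every WT sample, against 15.9% of all genes. The RNA polymerase I subunit Polr1a, on chromosome 6, had 11.34 and 11.22 in p-Foxo3a samples, against 10.57 to 11.17 in WT.

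Stress and clearance pathways held single members outside WT. Of 37 genes of protein folding stress and the integrated stress response 9 were higher and 11 lower in both samples. Over all genes, 25.1% were higher and 30.9% lower in both. The stress-induced factor Ddit3 (Chop) had 9.93 and 9.88 in p-Foxo3a samples, against 8.46 to 9.50 in WT, while its relative Cebpb, on chromosome 2, had 12.77 and 13.24 in p-Foxo3a samples, against 13.30 to 13.95 in WT. Atf5, a factor of the same response, had 9.16 and 9.47 in p-Foxo3a samples, against 9.52 to 10.02 in WT. Of 29 antioxidant genes 7 were higher and 9 lower, and their regulator Nfe2l2 (Nrf2), in the chromosome 2 run, had 7.61 and 7.59 in p-Foxo3a samples, against 7.87 to 8.18 in WT.

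Of 42 autophagy and lysosome genes 10 were higher and 15 lower in both samples, against 25.1% and 30.9% of all genes. The autophagy enzyme Atg7, on chromosome 6, had 9.23 and 8.66 in p-Foxo3a samples, against 8.25 to 8.47 in WT. The autophagosome membrane protein Atg9a had 7.66 and 7.43 in p-Foxo3a samples, against 7.94 to 8.29 in WT. The acid phosphatase Acp2, in the chromosome 2 run, had 8.51 and 8.89 in p-Foxo3a samples, against 9.25 to 9.63 in WT. In the lysosome, the proton pump subunit Atp6v1c1 had 10.29 and 10.50 in p-Foxo3a samples, against 10.89 to 11.20 in WT, while Atp6v0a1 of the same pump had 9.95 and 9.89 in p-Foxo3a samples, against 8.26 to 9.59 in WT.

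Over all genes, 25.1% were higher and 30.9% lower in both samples. Of 18 CDK inhibitors, D cyclins and pocket proteins 2 were higher and 7 lower in both samples, of 25 growth factor receptors 8 and 6, and of 20 monocyte and macrophage genes 5 and 7. In the last list the lectin Clec4e, on chromosome 6, had 7.78 and 8.48 in p-Foxo3a samples, against 7.13 to 7.74 in WT. Of 4 GATA-type factors 2 were higher and none lower, Trps1 being the one above every WT sample. Markers of other cells were present at summed linear intensities that mostly overlapped WT. The T and NK cell markers (5 of 11 kept) gave 18453 and 5057 in p-Foxo3a samples, against 2958 to 7896 in WT, so replicate 1 was above the range, although by member only 1 of 5 was above every WT sample there and 2 were below. Dendritic cell markers (5 of 8 kept) gave 3347 and 2680 in p-Foxo3a samples, against 1399 to 3168 in WT, stromal and endothelial markers (6 of 8) 2394 and 1463, against 890 to 2065 in WT, and B cell markers (6 of 9) 3127 and 2073, against 1642 to 2957 in WT, all above WT in replicate 1 and within it in replicate 4. By member, replicate 1 had 1 of 5 dendritic markers above every WT sample and 3 below, 3 of 6 stromal and endothelial markers above and none below, and 1 of 6 B cell markers above and none below. Of all 11889 genes, replicate 1 had 2688 above every WT sample and 3255 below. That is the background for these counts, those of T and NK cell markers included. Mast cell, basophil and eosinophil markers (8 of 8) gave 3703 and 21839 in p-Foxo3a samples, against 2354 to 48542 in WT. Monocyte, erythroid and megakaryocyte sums lay within the WT range in both. Their part in the gene values was not tested.

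Genes of stem cells and of the MLL-AF9 programme had 12 of 30 members higher and 6 lower in both p-Foxo3a samples. Over all genes, 25.1% were higher and 30.9% lower in both. List medians were 0.03 and 0.19 in p-Foxo3a samples, against -0.25 to 0.04 in WT. Hoxa9, a core target of the fusion on chromosome 6, had 9.63 and 10.44 in p-Foxo3a samples, against 10.03 to 11.03 in WT. Its partner Meis1 had 12.54 and 13.01 in p-Foxo3a samples, against 12.02 to 13.20 in WT, inside the range. Gata2, a progenitor GATA factor on chromosome 6, had 11.52 and 12.38 in p-Foxo3a samples, against 8.31 to 12.22 in WT, with WT replicate 1 above p-Foxo3a replicate 1. The chromatin protein Cbx5 had 10.29 and 10.02 in p-Foxo3a samples, against 10.36 to 10.70 in WT.

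**Figure D5:**
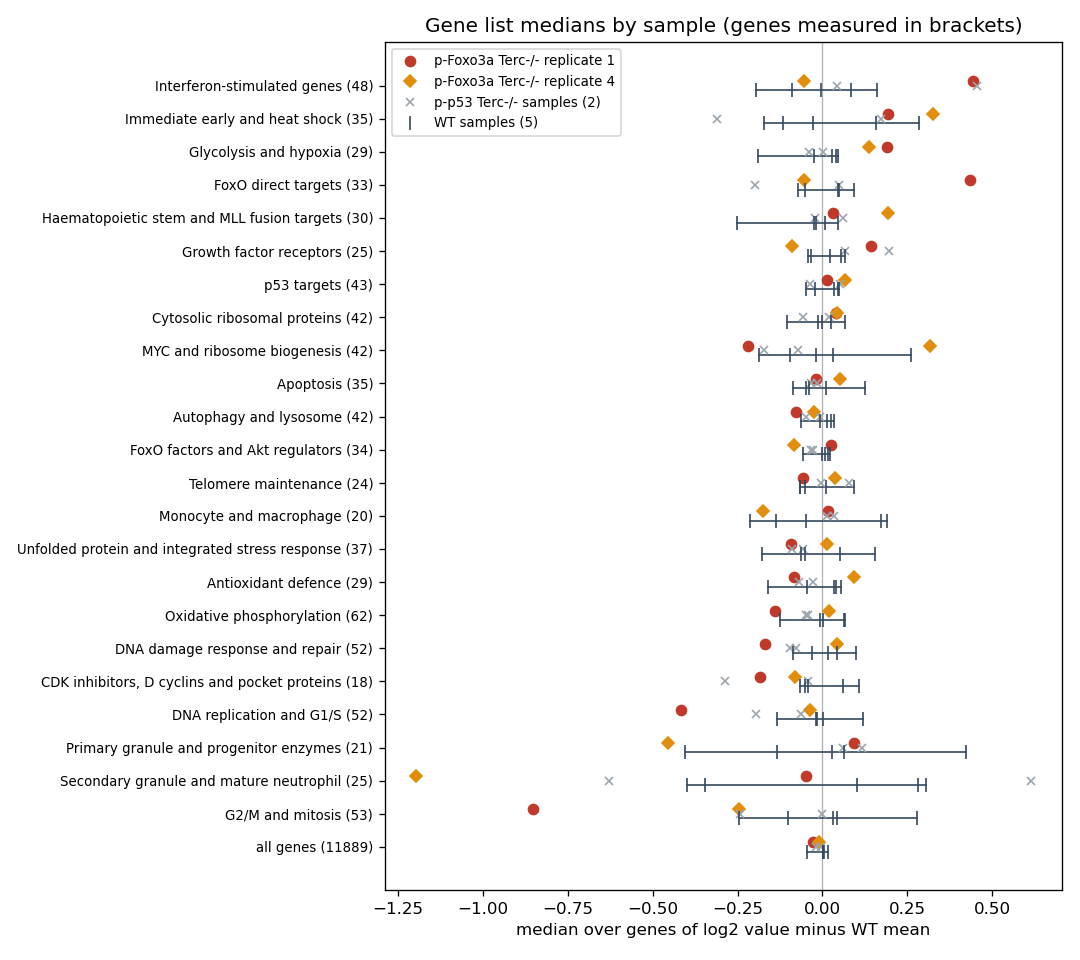
Median over each list's genes of the difference from the WT mean (x axis, log2 units) in p-Foxo3a Terc-/- replicates 1 (circles) and 4 (diamonds), p-p53 Terc-/- samples (crosses) and WT samples (ticks), for lists with at least 5 measured genes and for all genes. The 2 p-Foxo3a samples fall on different sides of WT for several lists, and the G2/M list is below all WT samples in replicate 1 and at the lowest WT sample in replicate 4.

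The p-Foxo3a samples were also set against the 2 p-p53 (Ser15) Terc-/- samples, replicate 3 and the averaged replicates 2 and 6, to ask whether the phosphorylation label itself went with expression. No gene passed in limma (0% called, smallest adjusted p = 0.596). Of 11889 genes, 610 had an unadjusted p under 0.05, close to the share that such a limit passes where no gene differs. Trps1 had 11.85 and 10.43 in p-Foxo3a samples, against 8.41 and 6.79 in p-p53 samples, a difference of 3.54. Kcnq5 had 8.24 and 8.62 in p-Foxo3a samples, against 7.19 and 6.83 in p-p53 samples. Ces1d had 6.72 and 7.87 in p-Foxo3a samples, against 7.48 and 13.01 in p-p53 samples, so 1 p-p53 sample shared the low value. Some genes described above were below every WT sample in both p-p53 samples too. Pdpk1 had 9.40 and 9.42 in p-p53 samples, against 9.53 to 9.75 in WT. Chek2 had 8.65 and 8.83 in p-p53 samples, against 9.03 to 9.32 in WT, and Lig1 had 11.17 and 11.28, against 11.37 to 11.78 in WT. How many genes did so was not counted. The fit with WT as the baseline uses the same p-Foxo3a samples, so these values are not a second line of evidence.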

How the data were processed

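The authors' deposited values, read as log2 intensities of 38502 probes on 12 arrays, were used. The submitters' processing notes name GenomeStudio. Normalization, background treatment and log base were not given in the sources used here, and the log2 scale is read from the values. At equal rank the sorted values of any 2 arrays were within 0.0945 of each other. A second table of 24 columns whose names match no sample was not used. The mode of all values (6.35) and the spread below it (SD 0.13) set the background limit at a tail p of 0.05. Probes above it on at least 3 arrays were kept (21914). Platform annotation gave 1 gene to 32034 probes, several to 16, and did not list 6452. The brightest kept probe stood for a gene, and 31976 annotated probes were matched to GRCm38.p6 for symbols and positions. Near-identical arrays (WT replicates 5 and 6, Terc-/- replicates 2 and 6) were averaged. Groups follow the titles and the phosphorylation label. The fit was limma 3.58.1 in R 4.3.3 (lmFit, eBayes, Benjamini-Hochberg, two-sided, threshold 0.05) with 3 levels over 9 samples: WT, p-p53 and p-Foxo3a. Terc-/- replicate 5, whose status is not given, was left out. The fit was tested on simulated data. An exact permutation of 2 against 5 samples cannot go below p = 0.0952.

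Named genes are the 13 higher and 13 lower with the largest smaller difference from the WT mean among those beyond every WT sample in both p-Foxo3a samples, a fixed set of FoxO, Akt, p53 and stem cell genes, and up to 4 members per list. Other genes named were chosen after their values were seen. The 24 pathway lists, 10 marker lists and named genes were chosen with earlier results of these data known, so they support nothing by themselves. Bright genes lie 1 or more above the limit, and a chromosome counts as shifted at a median of 0.15. Alternatives changed the probe filter, normalization, probe choice, chromosome correction, fit and samples. The number of arrays limits the precision.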

Additional observations from a re-analysis of the deposited data

Results flagged for a closer look

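In 4 of 72 groups of WT values checked, 1 of the 5 WT samples stood apart from the others, and chance alone flags about 1 in 20 groups. Ces1d was 10.11 in WT replicate 1, against 12.22 to 12.98 in the other WT samples, and Mpo was 15.49 in the same sample, against 15.65 to 15.70. The median of the FoxO factors and Akt regulators was -0.058 in WT replicate 4, against -0.00054 to 0.022 in the others. The median of the stem cell and MLL fusion targets was -0.251 in WT replicate 2, against -0.026 to 0.044 in the others.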

How the results depend on the processing

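Requiring both p-Foxo3a samples to lie at least 0.5 from the WT mean left 251 genes beyond the WT range, and without the filter on dim probes 909 genes lay above every WT sample. With the replicate number as a block (replicate block) over all 12 arrays, 756 genes had an unadjusted p under 0.05, and none was called. The p-Foxo3a samples share numbers 1 and 4 with WT. Deviations from the group means of same-numbered samples correlated at -0.024 and 0.088. With 2 p-Foxo3a samples these deviations mirror each other exactly, so the correlations cannot decide whether the numbers pair samples. The numbers were not taken as pairing them. Leaving out 1 sample at a time gave 0 to 260 called genes, 663 to 2174 at an unadjusted p under 0.05, 1439 to 5943 beyond the WT range, 578 to 2688 above and 853 to 3255 below it. Over the same omissions the median ranged from -0.055 to 0.436 for FoxO direct targets, -0.852 to -0.247 for G2/M genes, -0.417 to -0.038 for DNA replication and -1.20 to -0.048 for secondary granule genes. The FoxO target median reversed sign without p-Foxo3a replicate 1 (-0.055). Without WT replicate 1, 2345 genes lay beyond the WT range and 1058 above it. The cause of these changes was not tested, beyond the fewer samples used. The direction of the 26 named genes follows from how they were chosen, and none turned in the settings run for it (26 at most). With 2 samples, differences within the WT spread were not detectable. The counts for each p-Foxo3a sample alone and without chromosomes 2, 6 and 16 were alternatives chosen after seeing the data.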

Other observations

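Among the 916 genes that lay on opposite sides of the WT range, 445 were high in p-Foxo3a replicate 1 and low in replicate 4, and 471 the reverse. Genes high in replicate 1 included the chitinase-like Chil1 (13.39 and 6.36 in p-Foxo3a replicates 1 and 4, against 7.47 to 9.30 in WT), the lysozyme Lyz2 (13.97 and 10.25, against 11.06 to 13.13 in WT), the neutrophil antigen Cd177 (13.47 and 9.57, against 11.07 to 12.43 in WT) and the fractalkine receptor Cx3cr1 (10.84 and 7.68, against 8.76 to 10.17 in WT). Genes high in replicate 4 included the adhesion receptor Adgrl4 (6.96 and 12.42 in p-Foxo3a replicates 1 and 4, against 8.97 to 11.60 in WT), the homeobox cofactor Pbx3 on chromosome 2 (6.67 and 9.90, against 7.51 to 9.23 in WT) and the sialic acid lectin Cd33 (8.62 and 12.06, against 9.53 to 11.59 in WT). These genes were chosen after their values were seen, by the size of the smaller difference.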
